A study of Mus musculus with 2 samples.

Results

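The IGF receptors and binding proteins form a set of 10 genes of the insulin-like growth factor (IGF) system: the ligand gene Igf1, the receptor genes Igf1r, Igf2r and Insr, the binding-protein genes Igfbp2, Igfbp3, Igfbp4, Igfbp5 and Igfbpl1, and Igf2bp1, which encodes an mRNA-binding protein. They were chosen by symbol, and all 10 were found by Ensembl gene ID among the 43346 genes of the deposited tables. RNA was sequenced from the forebrain of healthy newborn mice of the strain B6NTac;B6NCrl/Lap at an age of 0 days, with the sexes pooled. There were 2 libraries and 1 group, with no treatment and no second condition. Replicate 1 was a pool of 15 mice, and the number of mice behind replicate 2 was not given in the sources used here. Both libraries were strand-specific, depleted of ribosomal RNA and made from RNA longer than 200 nucleotides, and the labels describe them as separate tissue isolates under one donor identifier, so the spread between them may be partly technical.

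IGF1 and IGF2 are secreted peptides related to insulin. Both activate the tyrosine kinase receptor IGF1R, whose close relative INSR binds insulin and, in one of its spliced forms, IGF2, while IGF2R takes IGF2 into the cell for breakdown. Binding proteins hold IGFs outside cells and either block them or present them to receptors, and in the developing brain the system is known for effects on progenitor growth, neuron survival and brain size.

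Levels are given as coding TPM: TPM, a measure of transcript abundance corrected for length and depth, rescaled so that the protein-coding genes of each library summed to 1000000. The rescaling was used because protein-coding genes held 13.7% of TPM in replicate 1 and 22.3% in replicate 2. By expected counts, which are not divided by length, they held 70.6% and 78.4%. The libraries totalled 62516003 and 65912060 expected counts. All 8 genes of a telencephalic marker list were at 1 coding TPM or more in both libraries, and none of 8 hindbrain and spinal cord genes was, with 5 of those at 0 in both. In bulk tissue, fewer cells of a type and less RNA per cell cannot be told apart.

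Most of the canonical binding proteins share a cysteine-rich stretch near the start of the protein, which reads glycine, cysteine, glycine, cysteine, cysteine, any 2 residues and cysteine. The coding sequences of 4 of the 5 binding-protein members held it, and it is shown here because it sets these 4 apart from Igfbpl1. The 24 bases that encode it are printed 5′ to 3′ on the coding strand from GENCODE M21 (mm10), with the cysteine codons in capitals.
Igfbp2: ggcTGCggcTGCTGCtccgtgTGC
Igfbp3: ggcTGCggcTGCTGCctgactTGC
Igfbp4: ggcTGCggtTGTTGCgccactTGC
Igfbp5: ggcTGTggcTGCTGCatgactTGC
They lie at chr1:72824778-72824801 (+), chr11:7213566-7213589 (-), chr11:99041650-99041673 (+) and chr1:72873966-72873989 (-), each within 1 coding exon, and begin at residues 67, 68, 52 and 51. The search covered the coding strand in the reading frame, and 18 of 21866 protein-coding genes (0.0823%) held a match, among them Igfbp1 and the matrix-protein genes Ccn1, Ccn2, Ccn5 and Ccn6. Igfbpl1, the IGFBP-like member, had no match, and neither had the ligand, the receptors or Igf2bp1.

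All 10 members were detected at 1 coding TPM or more in both libraries, and their mean levels spanned from 3.01 to 309.8 coding TPM. For scale, 13596 of 21474 protein-coding genes passed that level in each library, and their median was 27.0. The 5 binding-protein genes were the 5 highest of the 10. Their summed level was 636 coding TPM in replicate 1 and 676 in replicate 2. The 3 receptor genes together gave 86.8 and 107 coding TPM, and Igf1 gave 9.01 and 11.1.

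**Figure D1:**
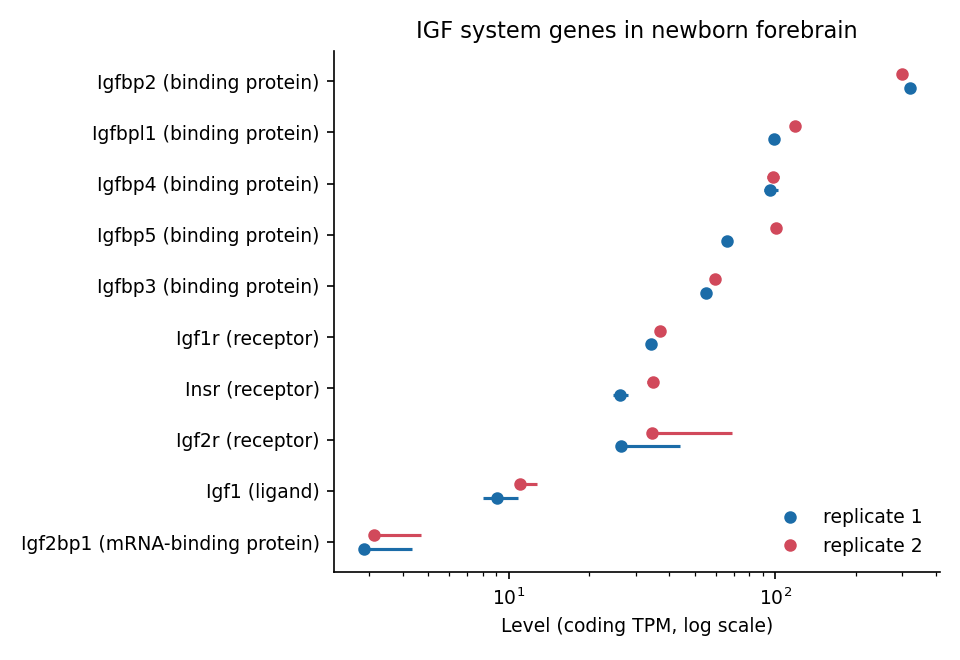
Level of each member in each library in coding TPM on a log axis, ordered by mean; points are the 2 libraries and lines are the bounds deposited with each value. The 5 binding-protein genes stand above the 3 receptor genes, which stand above Igf1 and Igf2bp1; the long lines of Igf2r reach 43.8 and 68.6.

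Igf1 (ENSMUSG00000020053.14, chr10:87858265-87937042, + strand) was the lowest of the secreted or membrane components. It had 995 and 1669 counts, or 9.01 and 11.1 coding TPM, a mean of 10.04 ± 1.46 (SD, n = 2), and 52.2% of protein-coding genes lay below it. Igf1 transcripts start from alternative leader exons and end in alternative 3′ parts, so that the secreted peptide comes from several precursors. Of 8 Igf1 transcripts in the tables, Igf1-202 led in both libraries, with 71.6% and 91.1% of the gene's TPM. By counts its share was 96.9% (95% Wilson interval 95.6 to 97.8%) and 98.7% (98.1 to 99.2%). These intervals, like the others here, cover counting error only.

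The alternative Igf1 ending passes through a 52-base exon at chr10:87915298-87915349 (+), which changes the tail of the precursor and which Igf1-202 skips. It is shown because its apparent use depended on the measure.
Igf1 exon of 52 bases: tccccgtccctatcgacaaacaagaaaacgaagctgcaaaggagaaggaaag
The 4 transcripts that cover these 52 bases held 23.3% of Igf1 TPM in replicate 1 and 6.10% in replicate 2. They held only 19.6 and 13.2 expected counts, which is 1.97% (95% Wilson interval 1.30 to 3.08%) and 0.788% (0.456 to 1.33%) of the gene's counts. Most of their TPM came from Igf1-208, a model of 510 nucleotides, against 7052 for Igf1-202. The leader exons were as unequal: the 3 transcripts with the first leader exon had 970.2 and 1648 counts. The 5 transcripts with the second had 24.8 and 21.1 counts, although they held 25.7% and 8.88% of the TPM.

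Among the receptor genes, Igf1r, Insr and Igf2r lay close together. Igf1r (ENSMUSG00000005533.9, chr7:67952827-68233668, +) encodes the main signalling receptor for both IGFs. It had 3183 and 3765 counts, or 34.2 and 37.1 coding TPM (35.6 ± 2.05, SD, n = 2), above 73.8% of protein-coding genes. Only 1 Igf1r transcript was in the tables, so its 100% share says nothing of splicing. The deposited model of that transcript is 4489 nucleotides, whereas GENCODE M21 gives 11409, with a coding length of 4107 in M21. Whether the shorter model changed the Igf1r level was not tested.

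Insr (ENSMUSG00000005534.9, chr8:3122061-3279617, -), the insulin receptor gene, had 4625 and 6815 counts. Its levels were 26.2 and 34.9 coding TPM (30.5 ± 6.12, SD, n = 2). The 21-exon transcript Insr-201 held 86.0% and 87.5% of its TPM, and the retained-intron model Insr-202 held the remaining 13.96% and 12.5%. By counts Insr-202 held 2.48% (95% Wilson interval 2.08 to 2.98%) and 2.17% (1.85 to 2.55%), and 1397 of its 1675 bases are shared with Insr-201.

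Insr is known for a 36-base alternative exon: receptors without it bind IGF2 well, and receptors with it are more selective for insulin. Insr-201 lacks that exon and joins its exon 10 directly to exon 11. The exon occurs in GENCODE M21 in another transcript, Insr-203, at chr8:3181702-3181737 (-), and Insr-203 was not among the transcripts of the deposited tables. Both sequences are shown since they mark where the forms differ. With exons numbered within Insr-201, the capitals mark the start of exon 11, which follows the last 15 bases of exon 10. This exon 11 is not the 36-base exon.
Insr exon of 36 bases: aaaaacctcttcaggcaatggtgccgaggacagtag
Insr-201 joint: ggtttttgtccccagGCCATCCCGAAAGCG
Use of the 36-base exon was therefore not analysed here, and the Insr level does not separate the forms.

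Igf2r (ENSMUSG00000023830.9, chr17:12682406-12769664, -), the clearance receptor for IGF2 and also a mannose 6-phosphate receptor, had 4973 and 7169 counts. It stood at 26.4 and 34.6 coding TPM (30.5 ± 5.77, SD, n = 2). Igf2r-201 held 99.25% and 100% of its TPM. The level depended on the estimator: the posterior mean TPM that the authors also deposited gave 40.5 coding TPM, because short models with 0 expected counts in both libraries shared in that estimate. Of these, Igf2r-202 (245 nucleotides) received 13.8% and 19.2%, and a model of 261 nucleotides without a name in GENCODE M21 received 7.18% and 9.38%. The imprinted antisense gene Airn, which overlaps Igf2r, had 43 and 48 counts. Other antisense genes that overlap members had few reads: Igf1os had 1 and 8 counts over Igf1, Gm29202 had 0 and 7 over Igf2bp1, and Gm16180 had 0 in both libraries over Insr. The libraries keep strand, but whether the counting used it was not given in the sources used here.

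Within each library the 3 receptor genes were compared directly. Igf1r over Insr was 1.30 in replicate 1 and 1.06 in replicate 2. The limits that the deposited bounds give for this ratio were 1.18 to 1.43 in replicate 1, which leaves out 1, and 0.979 to 1.15 in replicate 2, which includes it. Igf2r over Insr was 1.01 and 0.992. Igf2r over Igf1r was 0.773 and 0.933, with limits of 0.747 to 1.33 and 0.908 to 1.92, which include 1. By the TPM values alone Igf1r was the highest of the 3 within each library. Of the limits for Igf1r, only those against Insr in replicate 1 leave out 1. Across libraries the values of each pair of receptor genes overlapped, so no order of their levels exceeded the spread between libraries. By contrast, Igf1r over Igf1 was 3.80 and 3.35, and no receptor value fell below an Igf1 value.

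Igfbp2 (ENSMUSG00000039323.14, chr1:72824503-72852474, +) was the highest of the 10. The protein is a secreted carrier that is abundant in fetal and neural tissue. It had 7440 and 7462 counts, 320.2 and 299 coding TPM (309.8 ± 14.6, SD, n = 2), which placed it at rank 428 of the protein-coding genes. Igfbp2 supplied 50.4% and 44.3% of the summed level of the 5 binding-protein genes. Its transcript Igfbp2-201 held 99.8% and 99.4% of the TPM.

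Igfbpl1 (ENSMUSG00000035551.6, chr4:45809468-45826923, -) was second, at 98.6 and 118 coding TPM (108 ± 14.02, SD, n = 2) from 4969 and 6290 counts. It encodes a secreted protein with an IGFBP domain but without the cysteine motif printed for Igfbp2 to Igfbp5. Igfbpl1-201, the coding transcript, held 84.9% and 81.8% of its TPM, and the processed transcript Igfbpl1-202 the other 15.1% and 18.2%. Counted by reads, Igfbpl1-202 held 3.29% (95% Wilson interval 2.82 to 3.81%) and 3.95% (3.49 to 4.45%).

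Igfbp4 (ENSMUSG00000017493.8, chr11:99041244-99054392, +), a mostly inhibitory carrier cut by the protease PAPPA, had 3334 and 4784 counts. Its levels of 95.9 and 98.1 coding TPM (97.0 ± 1.55, SD, n = 2) differed least between libraries in proportion to the mean. This holds for gene-level TPM only. The gene length behind that TPM rose from 1583 to 2028 nucleotides, and by scaled counts Igfbp4 was higher in replicate 2 (log2 ratio 0.24). Igfbp4 was the only member whose leading transcript by TPM was not annotated as coding. Igfbp4-203, a processed transcript of 785 nucleotides, held 65.3% and 50.4% of the TPM but 22.2% (95% Wilson interval 20.8 to 23.6%) and 12.8% (11.9 to 13.8%) of the counts. Of its 785 bases, 757 also occur in the coding transcript Igfbp4-201, which leaves 28 of its own. Igfbp4-201 alone gave 32.9 and 48.7 coding TPM.

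**Figure D2:**
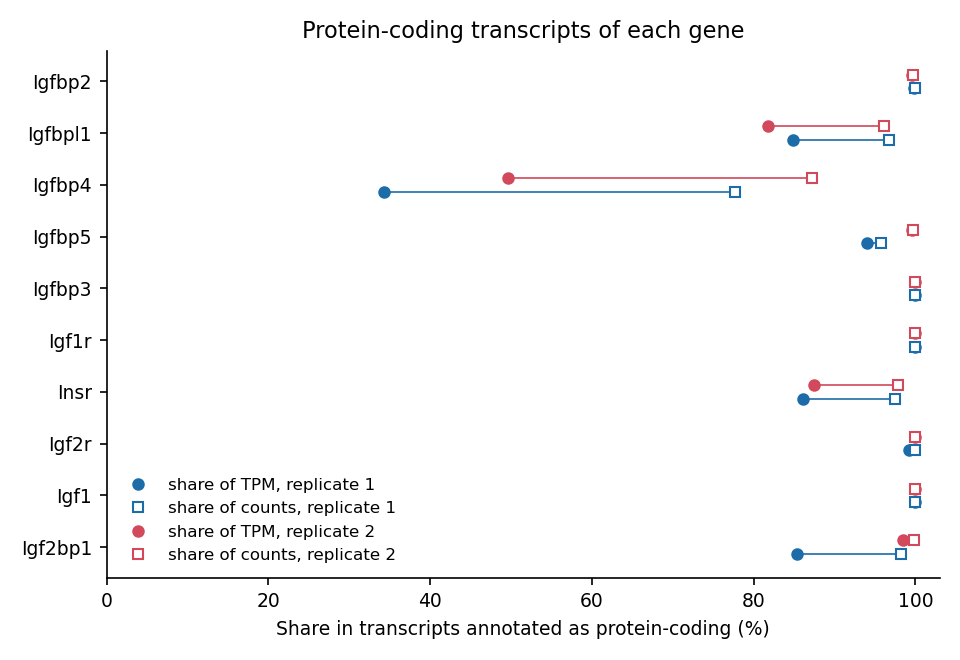
Share of each member, in percent, that fell in transcripts annotated as protein-coding, measured by TPM (filled circles) and by expected counts (open squares) in each library. Igfbp4 has the widest gap, with 34.3% and 49.6% of TPM in coding transcripts; by counts every member is above 75%.

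Igfbp5 (ENSMUSG00000026185.8, chr1:72857932-72874884, -), a carrier that also binds extracellular matrix, had the most counts of the 10, with 8213 and 13808. Its levels of 66.2 and 100.2 coding TPM (83.2 ± 24.1, SD, n = 2) had the widest spread relative to the mean. Igfbp5-201 held 94.1% and 99.5% of the TPM. Igfbp5 and Igfbp2 are neighbours on chromosome 1, lie tail to tail and are 5457 bases apart. Igfbp2 was 4.84 times as high as Igfbp5 in replicate 1 and 2.99 times as high in replicate 2.

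Igfbp3 (ENSMUSG00000020427.7, chr11:7206086-7213923, -), the main carrier of IGFs in adult blood, was the lowest of the 5. It had 2584 and 3077 counts, 54.8 and 59.6 coding TPM (57.2 ± 3.41, SD, n = 2). Igfbp3-201 held 96.5% and 99.2% of its TPM. Its neighbour Igfbp1, 3539 bases away, had 0 and 1 counts.

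The order of the binding-protein genes was not resolved at every step. Igfbp2 exceeded Igfbpl1 in both libraries with no overlap. The lower Igfbpl1 value (98.6) was only just above the higher Igfbp4 value (98.1), and Igfbpl1 over Igfbp4 was 1.03 and 1.21. Igfbp4 and Igfbp5 overlapped and changed places between libraries. Igfbp4 over Igfbp3 was 1.75 and 1.65 by gene. With coding transcripts alone, however, Igfbp4 averaged 40.8 coding TPM, below Igfbp3, and the mean ratio was 0.709. In replicate 1 that Igfbp4 level was 32.9, also below Igf1r at 34.2, whereas in replicate 2 it was 48.7 against 37.1. Only the place of Igfbp4 above Igf1r in both libraries thus rests on the gene-level TPM. By coding transcripts Igfbp4 stayed above Insr (22.6 and 30.5) and Igf2r (26.2 and 34.6) in both libraries.

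Igf2bp1 (ENSMUSG00000013415.5, chr11:95957163-96005940, -) was the lowest member. It encodes an oncofetal protein that binds mRNAs, including that of Igf2, and controls their transport and stability; it is not a carrier of the peptide. It had 448 and 603 counts, 2.88 and 3.13 coding TPM (3.01 ± 0.179, SD, n = 2), above 41.3% of protein-coding genes. Igf2bp1-201 held 85.3% and 98.4% of its TPM, and Igf2bp1-203 took the rest from 8 and 1 counts. Against its paralogs, Igf2bp1 was 0.264 and 0.267 times Igf2bp2, and 0.433 and 0.381 times Igf2bp3. With protein-coding transcripts only, Igf2bp1 over Igf2bp2 averaged 1.29, since the retained-intron model Igf2bp2-207 held 48.8% and 70.9% of Igf2bp2 TPM. By that measure Igf2bp1 stayed below Igf2bp2 in replicate 1 and exceeded Igf2bp2 in replicate 2 only.

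The only comparison between samples that the design allows is of the 2 isolates. No member differed by 2-fold or more: 0 of 10 were called, where 10.4% of the 17544 genes tested were. The call needed an adjusted p under 0.05 in an exact binomial test of the counts, adjusted over all genes tested, and a fold of at least 2; at 1.5-fold it was again 0 of 10, against 19.8% of all genes. At any fold, 7 of 10 members passed the adjusted p, against 65.4% of all genes, and the same number had an unadjusted p under 0.05. The test compares these libraries and not a condition, and at this depth it detects differences well below 2-fold.

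Of the 7, Igfbp5 differed by the largest log2 ratio of replicate 2 over replicate 1, 0.47 ± 0.02 (SE from counting; adjusted p = 4.5e-122, exact binomial test). Igf1 had nearly the same log2 ratio, 0.47 ± 0.06 (adjusted p = 2.0e-15, exact binomial test). Insr (0.28), Igf2r (0.25), Igfbp4 (0.24) and Igfbpl1 (0.06) were also higher in replicate 2. Igfbp2 was lower there, with a log2 ratio of -0.27 ± 0.02 (adjusted p = 4.7e-30, exact binomial test). Igf1r, Igfbp3 and Igf2bp1 did not pass, with 95% intervals of their log2 ratios from -0.10 to 0.03, from -0.10 to 0.05 and from -0.03 to 0.33. The members' median log2 ratio was 0.20, beside -0.003 over all genes tested.

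**Figure D3:**
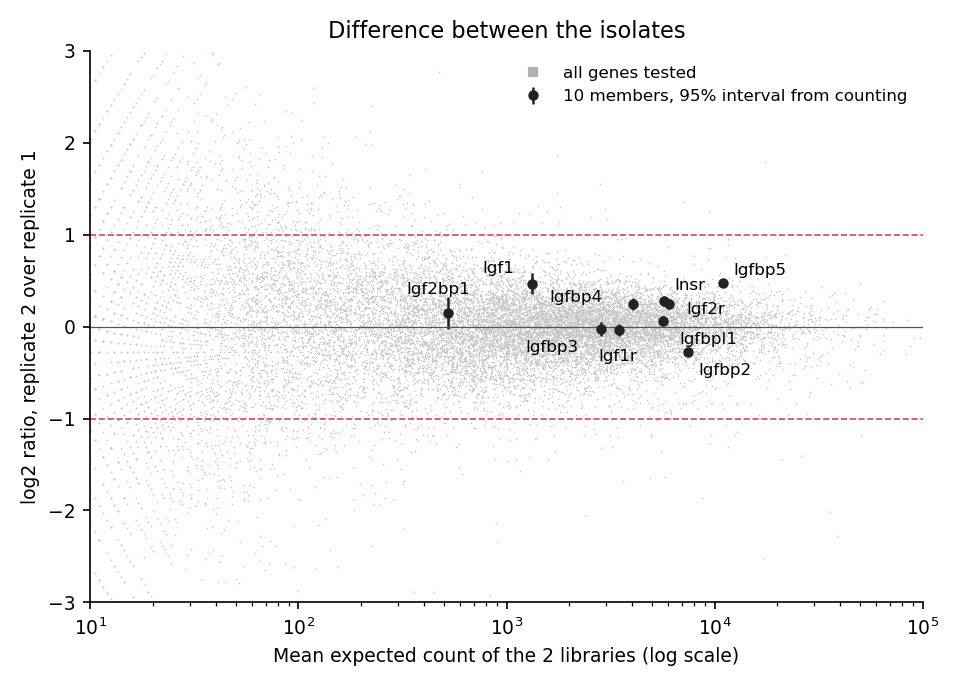
log2 ratio of replicate 2 over replicate 1 after scaling, against the mean expected count on a log axis; grey points are genes tested (297 lie beyond the vertical axis, and counts above the horizontal axis are not drawn), black points are the 10 members with 95% intervals, and dashed lines mark 2-fold. All 10 members lie between the dashed lines, with Igfbp5 and Igf1 the highest and Igfbp2 the lowest.

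The size of these differences depended on scaling, and so did the calls of the members that did not pass. With library totals in place of trimmed-mean scaling, the median of all genes moved to 0.19. All 10 members then passed the adjusted p of the exact binomial test, Igf1r at a log2 ratio of 0.16, Igfbp3 at 0.17 and Igf2bp1 at 0.34, and Igfbp2 was the only one below 0, at -0.08. None of the 7 that passed with trimmed-mean scaling changed sign. With a trend over transcript length and GC content taken off, the log2 ratio was 0.08 for Igf2r, 0.13 for Insr and -0.14 for Igfbp2. In that fit Igfbpl1 no longer passed (adjusted p = 0.063, exact binomial test) and Igf1r did, at -0.12 (adjusted p = 0.0010, exact binomial test). Among all genes, 966 were called higher and 867 lower in replicate 2, against 1310 and 656 with library totals. The coding TPM levels, which are scaled in another way and corrected for length, gave other log2 ratios. These were 0.12 for both Igf1r and Igfbp3, 0.26 for Igfbpl1, 0.03 for Igfbp4 and -0.10 for Igfbp2.

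The isolates also differed in markers of other tissue and of forebrain cells. The 7 genes of a meningeal fibroblast list were all higher in replicate 2, with 3 called. Their summed level was 250.2 coding TPM in replicate 1 and 693 in replicate 2. Most of that rise came from the collagen genes Col1a1 (25.6 and 171) and Col1a2 (61.3 and 243), while Slc6a13 had a log2 ratio of only 0.025. All 9 diencephalic genes were higher there too, at 43.0 and 77.7 summed coding TPM, with 5 called. The highest, Lhx9 (18.5 and 29.9), Tcf7l2 (10.3 and 17.0) and Gbx2 (8.93 and 13.8), were not called. The 5 called genes were lower, with Sim1 the highest of them at 1.70 and 5.45. All 6 endothelial genes were higher in replicate 2 (221 and 283 summed), none called. Other lists were lower in replicate 2. Of 7 choroid plexus genes 5 were lower, with 1 called; their summed level of 755 and 486 was mostly Ttr (713 and 446), while Otx2 and Aqp1 were higher. All 5 erythroid genes were lower (2511 and 1812 summed), with 1 called. Of 4 skeletal muscle genes tested 3 were called lower (25.3 and 13.2 summed over the list of 5), and both hindbrain genes tested, En1 and En2, were called lower at levels under 1 coding TPM. Forebrain markers moved in both directions. Of 8 telencephalic genes 4 were higher in replicate 2, with log2 ratios from -0.84 (Emx1) to 0.52 (Dlx1) and none called. Of 5 pericyte genes 4 were higher, none called. The numbers higher were 1 of 6 for neurons, 2 of 6 for radial glia and astrocytes, and 2 of 5 for oligodendrocyte precursors. For microglia 2 of 7 were higher, and Aif1 was called lower. Apart from the 5 hindbrain genes, no gene of these lists was at 0 in both libraries. The part of these tissues and cell types in the values of Igfbp5, Igf1, Igfbp2 and the receptor genes was not tested.

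Other genes of the pathway place the members in context. Of 32 listed genes, 26 were at 1 coding TPM or more in both libraries. Among ligands, Igf2 stood at 147 and 277 coding TPM (212 ± 91.4, SD, n = 2), or 16.3 and 25.0 times Igf1, and its log2 ratio of 0.85 was larger than that of any member. Igf2 was not called, but it was with library totals (1.05). The insulin genes Ins1 and Ins2 had 0 counts in both libraries. Thus Igf1 and Igf2 together reached 156 and 288 coding TPM, against 636 and 676 for the 5 binding-protein members.

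Of the other binding-protein genes, Igfbp7 averaged 40.4 coding TPM, below Igfbp3, and neither it nor Igfbp6 carried the cysteine motif. Among the proteases that cut binding proteins and their inhibitors, Htra1 averaged 32.1 coding TPM and Pappa 1.09, the lowest. Pappa, with 140 and 409 counts, was called higher in replicate 2 (log2 ratio 1.26, adjusted p = 2.3e-20, exact binomial test). The insulin receptor-related gene Insrr had 56 and 70 counts, far fewer than Insr. Its coding TPM of 0.517 and 8.35 did not follow the counts, since a processed transcript of 376 nucleotides took 94.9% of its TPM in replicate 2.

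Downstream of the receptors, all 8 adaptor and regulator genes were detected, from Irs4 (12.3 coding TPM) to Grb10 (67.0). Each of the 8 had a log2 ratio above 0, with a median of 0.32 (0.51 with library totals). Irs4, an insulin receptor substrate with 810 and 2682 counts, was called higher in replicate 2 (log2 ratio 1.45, adjusted p = 1.8e-158, exact binomial test). Of 9 genes of the lipid kinase arm, from Pik3cb (5.35) to Akt1 (207), 2 had a log2 ratio above 0 and none was called, but with library totals 7 were above 0. Over the list, 2 of 28 tested genes were called, both higher, where 10.4% of all genes were called. A log2 ratio above 0 was found for 16 of the 28 (25 with library totals), with a median of 0.05, beside 49.8% of all genes tested.

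**Figure D4:**
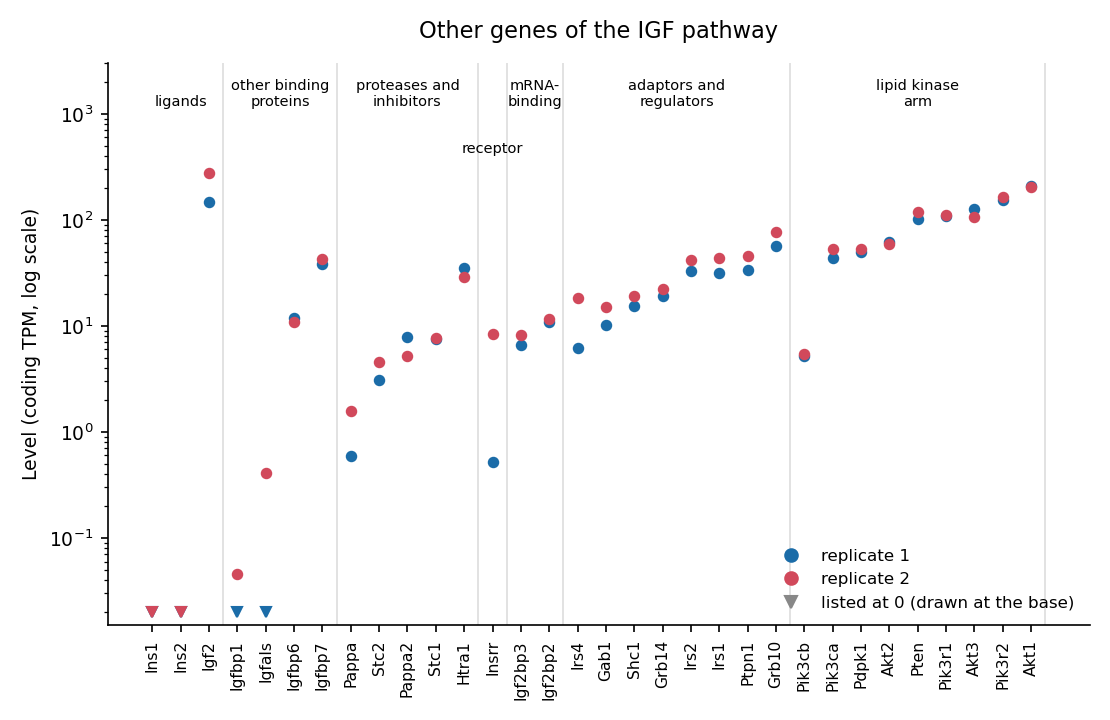
Levels of the 32 other pathway genes in each library, in coding TPM on a log axis, grouped by role; triangles mark values listed at 0. Igf2 and Akt1 have the highest means, 212 and 207, and Ins1 and Ins2 are at 0 in both libraries.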

How the data were processed

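Total RNA was sequenced from 2 forebrain libraries of 1 group. Per the file headers, the authors deposited, for each gene and transcript, expected counts, TPM, FPKM, posterior mean estimates, a posterior SD and lower and upper bounds (read here as scores), and each transcript's percent of its gene's TPM. Coordinates are on mm10 with GENCODE M4, per the labels; the aligner and quantifier were not given in the sources used here. Gene names, types and sequences came from GENCODE M21, which matched 42462 of 43346 gene IDs and calls 21474 protein-coding.

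TPM was rescaled so that protein-coding genes summed to 1000000 (factors 7.38 and 4.54). Values are mean ± SD over 2 libraries. Counts were rounded, scaled by TMM in edgeR 4.0.16 (R 4.3.3), and compared between libraries after adding 0.5 in ratios, with a two-sided exact binomial test in scipy 1.17.1, for the 17544 genes that averaged 10 counts or more; p-values were adjusted by the Benjamini-Hochberg method over all of them, and the script was tested on simulated data. With 1 library on each side, no dispersion could be fitted, so p-values hold counting error only; the posterior SD of every member's count was 0. The members, pathway and marker lists were chosen with earlier results of these data known. Named genes are the 10 members, the highest and lowest of each role of the pathway list, and its called genes; Ins2, Igfbp6, genes antisense to members, marker genes and genes sharing the motif were named after their values were seen. Alternatives changed the scale, the estimator, the transcripts counted, the filter, the fold, the size factors (DESeq2 1.42.0 among them), or took off a trend with length and GC content; use of coding transcripts only for levels, and shares by counts, were added after seeing the data.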

Additional observations from a re-analysis of the deposited data

How the results depend on the processing

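All 10 members stayed at 1 coding TPM or more with a threshold of 0.5, FPKM, coding transcripts only, and without replicate 1 or without replicate 2; 9 did at a threshold of 5 and with TPM not rescaled. No member was called under any of 8 alternatives. Genes called, 1833, became 2752 with no filter, 379 where genes had to average 100 counts and 3475 at 1.5-fold. With the length and GC trend taken off, 1075 were called higher and 622 lower, and 6 members were above 0. Results that changed side were the following. By counts not divided by length, Igf1r over Insr was 0.620, Igf2r over Igf1r 1.73 and Igfbp2 over Igfbp5 0.723, by the construction of that measure. With posterior mean TPM, Igf2r over Igf1r was 1.14. With coding transcripts only, mean Igfbp4 over Igfbp3 was 0.709 and mean Igf2bp1 over Igf2bp2 1.29, but replicate 1 kept Igf2bp1 below Igf2bp2. By that measure Igfbp4 also fell below Igf1r in replicate 1, at 32.9 against 34.2 coding TPM. With library totals, log2 ratios were 0.16 for Igf1r and 0.17 for Igfbp3; with the trend taken off, that of Igf2bp1 was -0.016, and the cause was not tested. Differences between isolates need both libraries, so no library could be left out there, and no paired analysis was possible because there is 1 group. Depth limits Igf2bp1 most, with 448 and 603 counts, and minor transcripts with under 25 counts, such as those of Igf1.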
